A study of Mus musculus with 4 samples.

Results

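Capillary endothelial cells that carry Ifit1 were described in transplanted mouse hearts profiled by single-cell RNA sequencing. A cell was taken as a member when it had over 200 detected genes, under 20% mitochondrial transcripts, at least 1 unique molecular identifier (UMI, 1 tagged transcript molecule) of each of Cdh5, Cd300lg, Ifit1 and Isg15, under 20 UMIs of Cxcl9, and no UMI of Ptprc, Pdgfrb, Gja5, Prox1, Npr3 or Mki67. Cdh5 encodes VE-cadherin of endothelial junctions and Cd300lg marks capillary endothelium, whereas the excluded genes mark leukocytes, mural cells, arteries, lymphatics, endocardium and cycling cells. The rule found 1749 members among 53824 deposited cells, of which 44626 passed the gene and mitochondrial filters and 9116 met the capillary conditions before Ifit1, Isg15 and Cxcl9 were considered. Because Ifit1, Isg15 and Cxcl9 chose the cells, their levels here are descriptions.

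The study placed donor hearts in the abdomen of C57BL/6J recipients and collected the grafts 5 days later. There were 2 allogeneic grafts from Balb/C donors and 2 syngeneic grafts from C57BL/6J donors, all from young adult male mice without any drug treatment stated, and each graft was profiled with 10x 3′ chemistry. Cells of donor and recipient origin are mixed in such a graft. The deposited matrix pools the grafts, and its cells fall into 4 libraries that no label or file ties to a graft, so the libraries are numbered 1 to 4, none is called allogeneic or syngeneic, and no test between grafts was possible. The libraries held 96020294, 115162601, 138892048 and 166079145 UMIs in all. In the whole matrix 616 cells share a barcode sequence with a cell of another library, and 0 members do.

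Interferons are secreted signals that make a cell ready to resist viruses. Type I interferons act through the receptor pair Ifnar1 and Ifnar2 and lead to genes with an interferon-stimulated response element, which Stat2 and Irf9 help to read, while interferon gamma acts through Ifngr1 and Ifngr2 and leads to genes with a gamma-activated site. Many target genes answer to both. Ifit1 encodes a protein that binds foreign RNA caps, and Isg15 a ubiquitin-like protein that is joined to other proteins, and both are classical targets of type I interferon.

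The promoters of 5 genes on which the description turns are shown from RefSeq on GRCm38.p6, each running from 250 bases before to 50 bases after the gene start and read in the direction of the gene. Ifit1 and Isg15 define the cells, Ifit3 had the highest ratio outside the rule, Irgm1 is an immunity-related GTPase, and Cxcl9 sets the upper limit of the rule. Capitals mark the letters GAAA NN GAAA (N is any base), the core of the response element, on either strand.
Ifit1, chr19:34640639-34640938, plus strand: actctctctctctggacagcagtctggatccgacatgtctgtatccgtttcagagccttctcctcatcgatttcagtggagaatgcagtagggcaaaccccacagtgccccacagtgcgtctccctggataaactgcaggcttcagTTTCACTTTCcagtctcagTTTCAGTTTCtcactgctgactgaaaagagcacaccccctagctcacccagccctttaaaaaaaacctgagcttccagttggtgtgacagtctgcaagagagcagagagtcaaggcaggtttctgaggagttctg
Isg15, chr4:156200769-156201068, minus strand: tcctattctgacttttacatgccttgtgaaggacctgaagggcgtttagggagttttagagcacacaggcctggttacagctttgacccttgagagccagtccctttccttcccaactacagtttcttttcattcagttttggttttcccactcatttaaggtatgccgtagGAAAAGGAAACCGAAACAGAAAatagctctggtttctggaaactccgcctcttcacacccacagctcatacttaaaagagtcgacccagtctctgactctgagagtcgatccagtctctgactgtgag
Ifit3, chr19:34583279-34583578, plus strand: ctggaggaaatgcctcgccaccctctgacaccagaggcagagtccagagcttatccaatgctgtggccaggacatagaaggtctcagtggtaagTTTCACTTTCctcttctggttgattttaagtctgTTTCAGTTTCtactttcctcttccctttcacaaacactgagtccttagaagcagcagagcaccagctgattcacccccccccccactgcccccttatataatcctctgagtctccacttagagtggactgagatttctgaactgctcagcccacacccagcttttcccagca
Irgm1, chr11:48871371-48871670, minus strand: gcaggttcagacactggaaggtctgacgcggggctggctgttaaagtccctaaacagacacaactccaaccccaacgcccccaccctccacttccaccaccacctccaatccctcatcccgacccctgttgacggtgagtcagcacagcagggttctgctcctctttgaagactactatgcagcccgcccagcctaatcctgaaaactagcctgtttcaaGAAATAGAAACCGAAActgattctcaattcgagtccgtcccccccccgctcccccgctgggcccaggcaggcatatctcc
Cxcl9, chr5:92328030-92328329, minus strand: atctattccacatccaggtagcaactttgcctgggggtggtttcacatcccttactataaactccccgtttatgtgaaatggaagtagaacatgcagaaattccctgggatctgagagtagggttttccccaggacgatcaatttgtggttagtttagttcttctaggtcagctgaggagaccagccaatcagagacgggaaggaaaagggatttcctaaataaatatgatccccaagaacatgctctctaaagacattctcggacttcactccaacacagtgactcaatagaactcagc
The Isg15 window held 3 overlapping matches, Ifit1, Ifit3 and Irgm1 held 2 each, those of Irgm1 overlapping, and Cxcl9 held 0. Of all 32851 RefSeq promoters of this length, 3.44% held the letters on either strand. The letters TTCNNNGAA, the core of the gamma-activated site, occurred in 8.30% of all promoters. A match is a string of letters and not a bound site.

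Members made up very different shares of the capillary endothelium of the 4 libraries. They were 1107 of 3214 capillary cells in library 1 (34.4%, exact binomial 95% interval 32.8 to 36.1), 142 of 3186 in library 2 (4.46%, 3.77 to 5.23), 495 of 2540 in library 3 (19.5%, 18.0 to 21.1) and 5 of 176 in library 4 (2.84%, 0.929 to 6.50). Intervals here and below cover counting error only. Library 1 thus supplied 63.3% of all members. The low share in library 4 had another composition behind it than the one in library 2: 83.5% of the capillary cells of library 4 had 20 or more Cxcl9 UMIs and were kept out by the rule, and 73 of those 147 cells carried both Ifit1 and Isg15, whereas in library 2 2484 of 3186 capillary cells had neither gene and 2 were Cxcl9-rich.

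**Figure D1:**
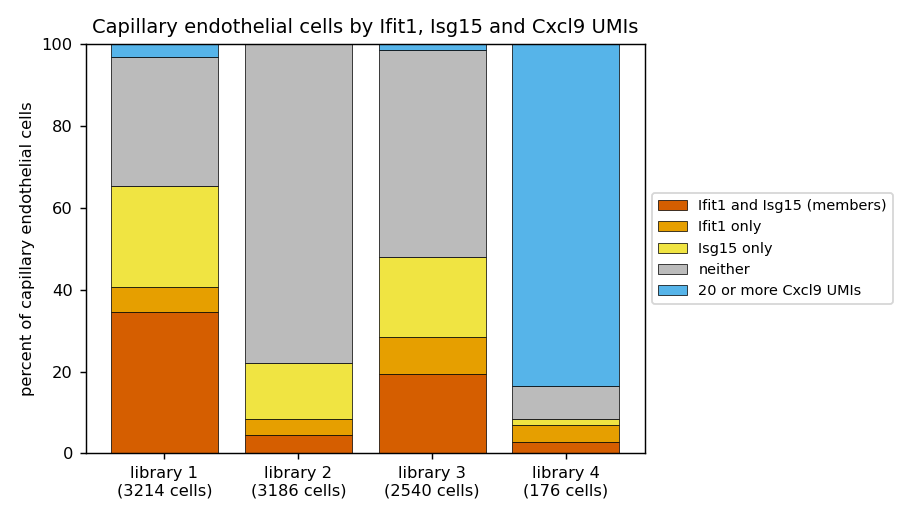
Stacked bars give the percent of capillary endothelial cells of each library with both Ifit1 and Isg15 (the members), with 1 of the 2 genes, with neither, or with 20 or more Cxcl9 UMIs, and the number of capillary cells stands under each bar. Members take 34.4% in library 1 and 4.46% in library 2, and the Cxcl9-rich cells take 83.5% in library 4.

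The conditions on Ifit1 and Isg15 were met narrowly by some members and by a wide margin in others. Exactly 1 UMI of each gene was found in 216 members (12.3%), and 1037 (59.3%) had at least 2 of each. By library, 1 UMI of each was found in 7.86%, 27.5% and 17.6% of members of libraries 1, 2 and 3, and at least 2 of each in 66.9%, 35.2% and 49.5%. The highest single-cell counts were 83 UMIs of Ifit1 and 37 of Isg15, both in library 1. Cxcl9 was at 0 UMIs in 727 members (41.6%). By library, that share was 37.9% in library 1, 72.5% in library 2 and 41.4% in library 3.

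Members were compared within each library with the capillary cells that had under 20 Cxcl9 UMIs and 0 UMIs of both Ifit1 and Isg15, called comparison cells below. There were 1006, 2484 and 1286 of them in libraries 1, 2 and 3, and the 5 members of library 4 were too few for a ratio. Levels are UMIs of a gene per 1000000 non-mitochondrial UMIs summed over the cells (CPM), and ratios are log2 values with 10 CPM added to both sides, given as the median over the 3 libraries. Such ratios understate the difference for low genes. Members were deeper cells, with a median of 6591, 11692.5 and 9947 UMIs in libraries 1, 2 and 3 against 3553.5, 5201.5 and 5183.5 in comparison cells, and had fewer mitochondrial transcripts, with medians of 6.23%, 3.84% and 6.07% against 8.51%, 5.19% and 8.56%. A cell with more UMIs is more likely to show a UMI of Ifit1 and of Isg15, so the main genes and lists are also given against comparison cells drawn to the depth of the members, called depth-matched cells. Depth-matched cells were drawn with replacement within 10 bins of depth. The 1107, 142 and 495 draws of libraries 1, 2 and 3 held 490, 136 and 356 distinct cells. The sparsest bin held 9, 33 and 14 comparison cells. Depth-matched levels may therefore rest in part on few cells drawn repeatedly.

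Of 8442 genes with at least 10 CPM in either kind of cell, 23 were 2-fold or more higher in members (0.272%) and 6 were 2-fold or more lower (0.0711%). Against depth-matched comparison cells the counts were 28 higher and 13 lower of 8476. The median log2 ratio over all genes tested was -0.08. The 23 higher genes include Ifit1, Isg15 and Cxcl9, which belong to the rule. The other 20 comprise 12 antiviral genes (Ifit2, Ifit3, Ifit3b, Oasl1, Oasl2, Usp18, Herc6, Ifi44, Rtp4, Cmpk2, Parp14 and Eif2ak2), the listed immunity-related GTPases Iigp1, Irgm1, Igtp and Ifi47, the transcription factors Irf7 and Irf1, the chemokine Cxcl10 and 9930111J21Rik2, a gene outside these lists. The 6 lower genes were C1qa, C1qb, Pf4, Mgp, Mfap5 and Timp1, none of them a gene of the interferon lists. The counts moved with single libraries: without library 1 they were 27 higher and 27 lower, and without library 2 they were 37 and 2. They moved with the scaling as well, to 42 higher and 44 lower with 1 CPM added and to 80 and 87 with levels pooled over libraries. Among the 20 genes, leaving out library 1 took Irf1, Ifi47 and Herc6 below 2-fold, to log2 ratios of 0.66, 0.92 and 0.99, leaving out library 2 took Oasl2 to 0.97, and leaving out library 3 took Irf1 to 0.85. Against all cells lacking Ifit1 or Isg15 the counts were 12 higher and 1 lower. Igtp, Irf7, Parp14, Rtp4, 9930111J21Rik2, Irf1, Ifi47, Eif2ak2, Oasl2 and Herc6 were then below 2-fold, at 0.69 to 0.96. The lower genes C1qa, C1qb, Pf4, Mgp and Mfap5 were all short of 2-fold without library 2, at -0.96 to -0.72, and without library 3, at -0.98 to -0.59.

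Ifit3 and Ifit2, relatives of Ifit1, had the highest median log2 ratios outside the rule. Cxcl10 came next at 1.81, ahead of Ifit3b, and in library 1 its ratio of 2.45 exceeded those of Ifit3 and Ifit2. Ifit2, Ifit3, Ifit3b and Ifit1 are neighbours between 34550694 and 34650009 on chromosome 19 (GRCm38), and their proteins bind RNA. Ifit3 (chr19:34583531-34588731) was at 143, 130 and 151 CPM in members of libraries 1, 2 and 3 against 43.3, 6.07 and 23.5 CPM in comparison cells. Its level in members was therefore similar in the 3 libraries while that of the comparison cells was not, and its log2 ratio was 1.52, 3.12 and 2.26. Ifit2 (chr19:34550694-34576419) was at 195, 58.7 and 126 CPM against 35.9, 5.55 and 25.5 CPM, a median log2 ratio of 2.14. Ifit3b, a near-identical copy of Ifit3 whose reads may be split between the copies, had a median log2 ratio of 1.62. Ifit1bl1 and Ifit1bl2, the remaining members of the family, were at or under 0.77 CPM in members of each library. Against depth-matched cells the median log2 ratios of Ifit3 and Ifit2 were 2.45 and 2.23.

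Genes that make and remove ISG15 conjugates were also higher. Usp18, the protease that takes ISG15 off its targets and dampens the type I receptor, was at 50.9, 71.4 and 53.7 CPM against 16.9, 9.22 and 17.0 CPM, a median log2 ratio of 1.24. Herc6, the ligase, was at 86.8, 43.7 and 83.0 CPM against 33.5, 15.7 and 39.3 CPM. Against depth-matched cells the median log2 ratio of Usp18 was 1.44, and that of Herc6 went from 1.06 to 0.97 and so below 2-fold. For these and the other genes of the list apart from Isg15, 5 of 5 were higher in all 3 libraries, as were 9.75% of all genes tested. The activating enzyme Uba7 was least so, with a median log2 ratio of 0.09. Among the oligoadenylate synthetase genes, which activate the RNA-degrading RNase L or sense RNA, the 4 tested were higher in all 3 libraries, beside the same 9.75%. Oasl1 was at 37.8, 63.2 and 36.1 CPM in members against 5.71, 4.01 and 6.79 CPM in comparison cells, so members exceeded comparison cells in each of the 3 libraries. The median of the list was 0.89, and 1.07 against depth-matched cells.

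Sensors of viral nucleic acid and the wider group of effectors had smaller ratios. Of 10 sensors tested 1 was 2-fold or more higher, Eif2ak2, the kinase that stops translation on double-stranded RNA, with a median log2 ratio of 1.08. Ifih1, which detects long double-stranded RNA, had 0.94, and the median of the sensors was 0.51. Which sensor passed 2-fold depended on the comparison cells: against depth-matched ones Eif2ak2 was at 0.90 and Ifih1 at 1.07, with a list median of 0.52. Of 30 other effectors 4 passed 2-fold, and their median was 0.52, or 0.75 against depth-matched cells. Rsad2 (viperin, chr12:26442746-26456452) was at 663, 259 and 555 CPM in members against 357, 40.6 and 284 CPM in comparison cells. The comparison cells of libraries 1 and 3 thus held more Rsad2 per UMI than the members of library 2, and the log2 ratios were 0.88, 2.41 and 0.94. Ifitm3, a membrane protein that blocks virus entry, was at 3219, 4386 and 3882 CPM against 2293, 2957 and 2880 CPM, a median log2 ratio of 0.49. Mx1, a classical antiviral GTPase, was at or under 0.93 CPM in members of every library compared. Over the antiviral lists, with Ifit1 and Isg15 left out, 12 of 52 genes tested were 2-fold or more higher, 44 were higher in all 3 libraries, where 9.75% of all genes tested were, and the median log2 ratio was 0.59. Library 2 had the highest list median, 0.99, against 0.56 in library 1 and 0.54 in library 3.

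**Figure D2:**
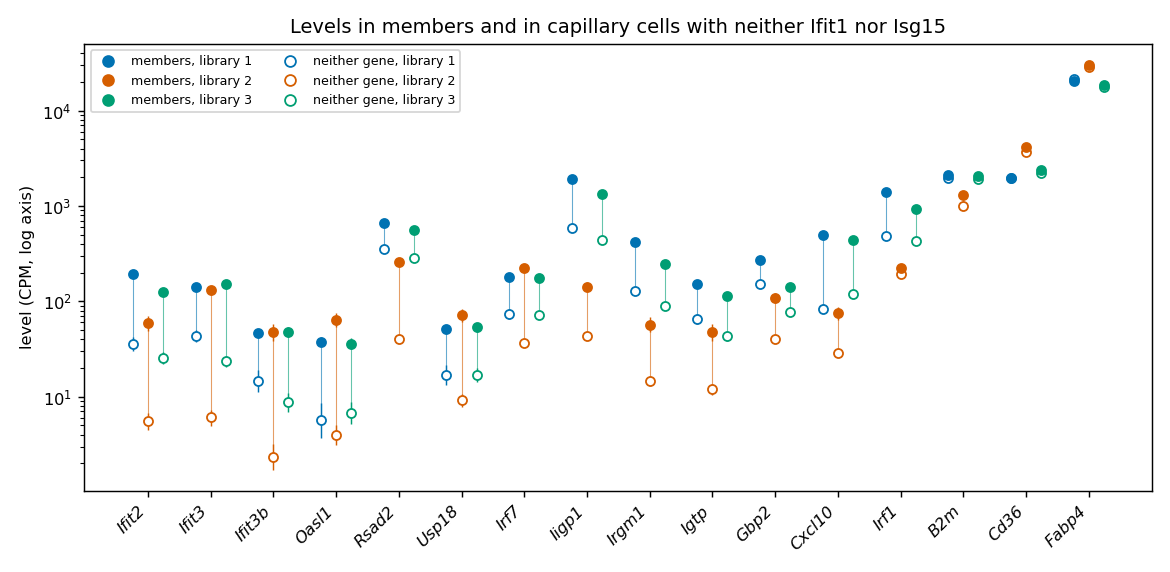
Points give the level of 16 genes in CPM on a log axis in members (filled) and in comparison cells with neither Ifit1 nor Isg15 (open) of libraries 1, 2 and 3, thin vertical lines join the pair of each library, and bars at the points are exact Poisson 95% intervals. The gap is wide for the Ifit genes, with Ifit2 at 195 against 35.9 CPM in library 1, and narrow for the capillary genes Cd36 and Fabp4.

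Transcription factors of the interferon response were partly higher. Irf7, which amplifies type I interferon production, was at 182, 222 and 175 CPM in members against 73.7, 36.6 and 71.9 CPM in comparison cells, so the lowest level in members lay above the highest in comparison cells. Irf1, a factor strongly induced by interferon gamma, was at 1396, 226 and 935 CPM against 488, 195 and 426 CPM. It was 2.82-fold higher in library 1 and 2.17-fold in library 3 but 1.15-fold in library 2. Stat2 and Irf9 differed less, with median log2 ratios of 0.54 and 0.55, each positive in every library compared. Irf3, which is activated by phosphorylation and not by its own induction, had a ratio of -0.18. Against depth-matched cells Irf7 was at 1.54, Irf1 at 1.00, Stat2 at 0.58, Irf9 at 0.62 and Irf3 at -0.06.

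The receptors and kinases that start the response were near the median of all genes. Of 8 tested, 0 passed 2-fold in either direction, and the list median was -0.12, or -0.01 against depth-matched cells. Ifnar1 was at 43.8, 29.6 and 44.7 CPM in members against 48.0, 29.7 and 52.6 CPM in comparison cells. Ifngr1 was at 226, 378 and 255 CPM against 290, 342 and 278 CPM. Ligands were almost absent from the members. The 20 interferon genes besides Ifng gave 7 UMIs in 4 members, of which 4 UMIs were Ifnb1 in a single cell, and 90 UMIs in all kept cells. Ifng gave 3 UMIs in 2 members, while the kept cells of libraries 1 to 4 held 273, 0, 135 and 34985 Ifng UMIs. Of the brakes on the pathway, 0 of 7 passed 2-fold. Socs1, an inhibitor of the Jak kinases, was at 303, 46.0 and 118 CPM against 107, 34.4 and 63.7 CPM, with log2 ratios of 1.42, 0.33 and 0.80.

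Immunity-related GTPases, which attack the vacuoles of intracellular parasites and are best known as targets of interferon gamma, were the list with the next highest median after the IFIT family. All 7 tested were higher in all 3 libraries, beside 9.75% of all genes, and 4 of them by 2-fold or more, beside 0.272%. The median log2 ratio was 1.12. In library 2 alone it was 0.85, below oligoadenylate synthetase genes (1.43), guanylate-binding proteins (1.03), other effectors (0.97) and ISG15 conjugation genes (0.94). Iigp1 was at 1938, 142 and 1339 CPM in members against 591, 43.3 and 441 CPM in comparison cells. The ratio was alike in the 3 libraries, at 1.70, 1.51 and 1.58 on the log2 scale, although the level in members of library 2 lay below that of the comparison cells of libraries 1 and 3. Irgm1 (chr11:48861968-48871683) was at 416, 56.9 and 246 CPM against 128, 14.6 and 89.7 CPM. Igtp had a median log2 ratio of 1.22 and Ifi47 of 1.12, and the near-identical copies Tgtp1 and Tgtp2, between which reads may be split, of 0.93 and 0.97. Guanylate-binding proteins, a related family, had a median of 0.81, and 0 of 7 reached 2-fold. Gbp2 was at 274, 109 and 141 CPM against 152, 40.4 and 78.0 CPM, and Gbp5 had the highest ratio of the list, 0.98. Against depth-matched cells 5 of 7 immunity-related GTPases and 2 of 7 guanylate-binding proteins passed 2-fold.

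Chemokines of the interferon response differed among libraries. Cxcl10, which draws Cxcr3-bearing T cells, was at 500 CPM in members of library 1, 74.6 in library 2 and 444 in library 3, against 83.4, 28.4 and 119 CPM. Its log2 ratio was thus 2.45, 1.14 and 1.81, and the members of library 2 lay below the comparison cells of libraries 1 and 3. Cxcl9, capped by the rule, was at 402, 37.8 and 231 CPM against 182, 18.5 and 89.2 CPM. Of the 9 chemokine genes tested these were the only 2 past 2-fold. Ccl2, which recruits monocytes, was at 50.7, 217 and 51.7 CPM against 71.8, 499 and 66.6 CPM. Against depth-matched cells the median log2 ratio of Cxcl10 was 1.63, and that of Ccl2 went from -0.43 to -0.998.

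Of the antigen presentation genes tested, none differed by 2-fold or more between members and comparison cells in the median over libraries 1 to 3. None of 13 class I and peptide-loading genes reached 2-fold, and 10 of them were higher in all 3 libraries, as were 9.75% of all genes tested, with a median log2 ratio of 0.20, or 0.32 against depth-matched cells. B2m, the light chain of class I, was at 2097, 1290 and 2068 CPM against 1980, 988 and 1927 CPM. Tap1, a peptide transporter, had the highest ratio of the list, 0.65. Reads of the class I heavy chain genes may be divided among near copies and depend on how well each donor strain matches the reference. The immunoproteasome genes had a median log2 ratio of 0.21 and the constitutive subunits of -0.15. Of 7 class II genes 4 were tested, 0 were 2-fold or more lower, and all 4 had ratios below 0 in all 3 libraries, as had 33.1% of all genes tested. Cd74, the class II chaperone, was at 42.3, 5.92 and 34.6 CPM in members against 68.0, 20.4 and 76.0 CPM, and the list median was -0.60, or -0.12 against depth-matched cells.

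**Figure D3:**
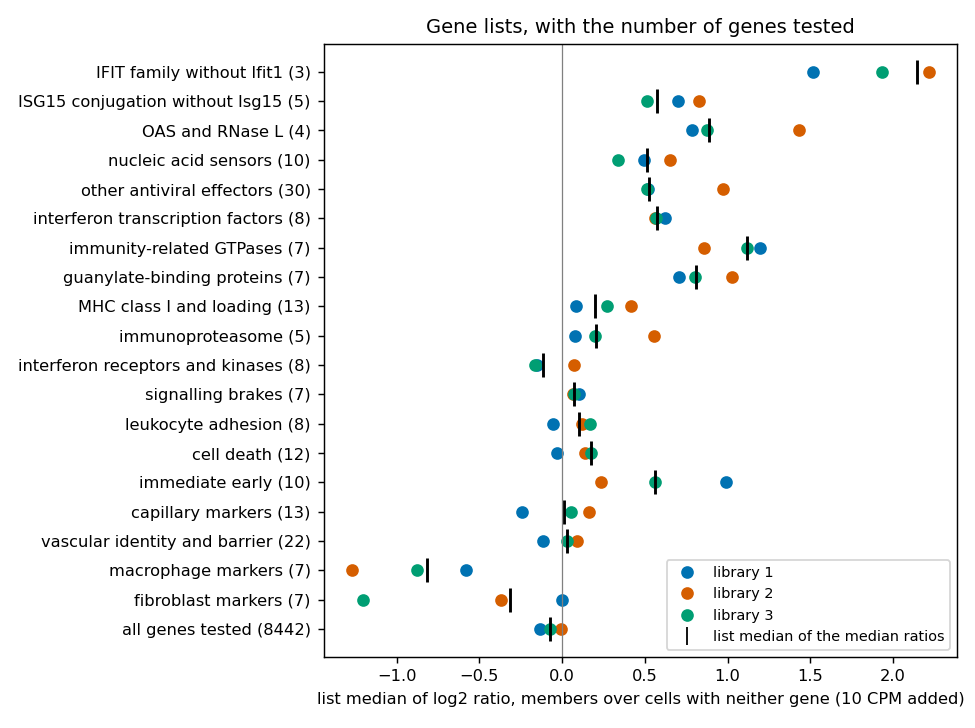
Points give the median log2 ratio of each gene list, members over comparison cells with 10 CPM added, in libraries 1, 2 and 3, black ticks give the list median of the median ratios, and the number of genes tested stands in brackets. The IFIT family, plotted without Ifit1, lies highest at 2.14, the immunity-related GTPases at 1.12, and capillary markers at 0.01 beside all genes at -0.08.

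Ifit2 and Iigp1 stepped up with the number of marker genes a capillary cell showed. Cells with Isg15 but no Ifit1 and cells with Ifit1 but no Isg15 were set between comparison cells and members. In library 1 Ifit2 was at 35.9 CPM with neither gene, 42.2 with Isg15 alone, 89.4 with Ifit1 alone and 195 with both. In library 2 the values were 5.55, 8.27, 9.41 and 58.7 CPM, and in library 3 they were 25.5, 37.6, 46.3 and 126 CPM. In libraries 1 and 3 Iigp1 had another order, with 591 CPM with neither gene, 1162 with Isg15 alone, 998 with Ifit1 alone and 1938 with both in library 1, and 441, 903, 696 and 1339 CPM in library 3. In library 2 its order was that of Ifit2, with 43.3, 62.6, 83.0 and 142 CPM. Irf1 did not step up in library 2, where it was at 195, 262, 193 and 226 CPM. Cells with Isg15 alone had a median of 5015.5 UMIs in library 1 and cells with Ifit1 alone of 4006.5, and whether depth sets the order of these intermediate groups was not tested.

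Values just inside and outside the limits of the rule were set side by side within libraries. At the Cxcl9 limit of library 1, Iigp1 was at 2166 CPM in the 50 members with 15 to 19 Cxcl9 UMIs and at 2526 CPM in the 19 cells with both genes and 20 to 24 Cxcl9 UMIs. Ifit2 was at 295 CPM inside and 241 CPM outside, and Ifit3 at 128 and 31.4 CPM. In library 3, Iigp1 was at 2518 CPM in 18 such members and 2066 CPM in 8 such cells outside, so its order was the opposite of that in library 1. At the lower limit of library 1, Iigp1 was at 1164 CPM in the 87 members with 1 UMI of each gene, 678 CPM in the 129 cells with 1 UMI of Ifit1 and none of Isg15, and 853 CPM in the 339 cells with 1 UMI of Isg15 and none of Ifit1. In library 2 these values were 68.1, 77.4 and 49.8 CPM, and in library 3 they were 974, 552 and 763 CPM. The Iigp1 level of members at the lower limit was the highest of the 3 kinds in libraries 1 and 3 and not in library 2, where these members numbered 39.

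Capillary markers that the rule did not use were abundant in members, at levels near those of comparison cells. Both kinds of cell were chosen by the same capillary conditions, and no other endothelial class was set beside them. The ratios therefore show likeness to other capillary cells and do not test the capillary label. Cd36, the fatty acid transporter of heart capillaries, was at 1969, 4130 and 2392 CPM in members against 1963, 3636 and 2221 CPM in comparison cells. Fabp4, a fatty acid carrier, was at 20234, 30312 and 18665 CPM against 21578, 28706 and 17752 CPM. Gpihbp1, which anchors lipoprotein lipase to the capillary wall, was at 1208, 2749 and 1262 CPM against 1523, 2552 and 1397 CPM. None of 13 capillary markers, Cd300lg of the rule included, passed 2-fold, and their median log2 ratio was 0.01, or 0.21 against depth-matched cells. Among 22 endothelial identity and barrier genes, Cdh5 of the rule included, 0 passed 2-fold, and the median was 0.03, or 0.06 against depth-matched cells. The shear-responsive factor Klf4 had the highest ratio there, 0.37, and Nos3, the endothelial nitric oxide synthase, had 0.01.

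Transcripts of other cell types were present and moved with membership in some libraries. All 7 macrophage markers tested of 9 were lower in members, 6 of them in all 3 libraries, as were 33.1% of all genes tested, with summed levels of 114, 121 and 238 CPM against 190, 381 and 493 CPM, and C1qa and C1qb passed 2-fold. Against depth-matched cells the macrophage median of -0.82 became -0.04, and C1qa went from -1.17 to -0.23, C1qb from -1.08 to -0.04 and Pf4, a platelet and macrophage chemokine, from -1.01 to -0.16. Mgp and Mfap5, matrix genes, did not move in that way: their median log2 ratios of -1.09 and -1.14 became -1.23 and -1.46. In library 1 Mgp was at 513 CPM in members against 546 CPM in all comparison cells and 1218 CPM in depth-matched ones. Whether the depth-matched levels of matrix, fibroblast and cardiomyocyte genes rest on few cells drawn repeatedly was not tested. Fibroblast markers summed to 1308, 233 and 567 CPM in members against 1024, 377 and 1525 CPM, and their median log2 ratio was -0.31, or -0.77 against depth-matched cells. Dcn, the most abundant of them in members of library 1, had log2 ratios of 0.87, -0.69 and -1.91. Cardiomyocyte markers summed to 802, 249 and 308 CPM against 1558, 289 and 383 CPM, and to 1789, 240 and 251 CPM in depth-matched cells. Their sum was thus lower in members of library 1 against either kind of cell, while the direction turned in libraries 2 and 3. The list median of -0.26 became -0.005. None of 8 T and natural killer markers reached the level for testing, their sums were 3.62, 1.36 and 1.39 CPM, and Cd3e was at 0 in members of each library compared. Neutrophil transcripts were high in library 2, where S100a9 was the most abundant. They summed to 1433 CPM in members against 3666 CPM in all comparison cells and 1352 CPM in depth-matched ones, so the direction turned with depth. Hemoglobin and Alas2 summed to 19957, 409 and 9149 CPM in members against 6407, 4340 and 6744 CPM, and to 11048, 5660.2 and 12478 CPM in depth-matched cells. Erythroid transcripts were thus higher in members of library 1 and lower in those of library 2 against either kind of cell, while in library 3 the direction turned with depth, and the list median of 0.48 became -0.38. The part of these transcripts in the interferon results was not tested. With cells limited to those without a UMI of Dcn, C1qa, Cd3d, Kcnj8 and Tnnt2, 321 members remained and ratios could be formed in libraries 1 and 3. The median log2 ratio of the IFIT genes besides Ifit1 was then 2.15, beside 1.89 for all members without library 2.

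Immediate early genes, which are induced within minutes by stress, growth signals and tissue dissociation, were also higher. All 10 were higher in all 3 libraries, as were 9.75% of all genes tested, 0 by 2-fold or more in the median, with list medians of 0.99, 0.23 and 0.56 in libraries 1, 2 and 3. Atf3 was at 1675, 725 and 889 CPM in members against 699, 576 and 549 CPM. Against depth-matched cells the median fell from 0.56 to 0.36, and the part of these genes in the interferon results was not tested. Heat shock, hypoxia and angiogenic genes had medians of 0.10, -0.07 and -0.24.

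Members varied among themselves. After each cell was thinned to 1000 UMIs, which left out 5 members, the antiviral genes besides Ifit1 and Isg15 gave a median of 12 UMIs per member in library 1, 11 in library 2 and 13 in library 3, against 8, 6 and 8 in comparison cells. The ranges overlapped: the lowest decile of members was 6, 6 and 7 UMIs, and the highest decile of comparison cells was 13, 11 and 14. The GTPase genes set the libraries apart more. Their median was 4 UMIs in members of library 1, 0 in library 2 and 2 in library 3, and 5.99%, 53.5% and 11.7% of members had no GTPase UMI among the 1000. After thinning, Iigp1 was found in 73.5%, 16.2% and 61.8% of members, and at full depth in 57.0% of members of library 2 and 93.7% of those of library 3. Ifit3 was not rarer in library 2, with 46.7%, 59.9% and 56.2% of members at full depth and 14.2%, 22.5% and 14.9% after thinning.

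**Figure D4:**
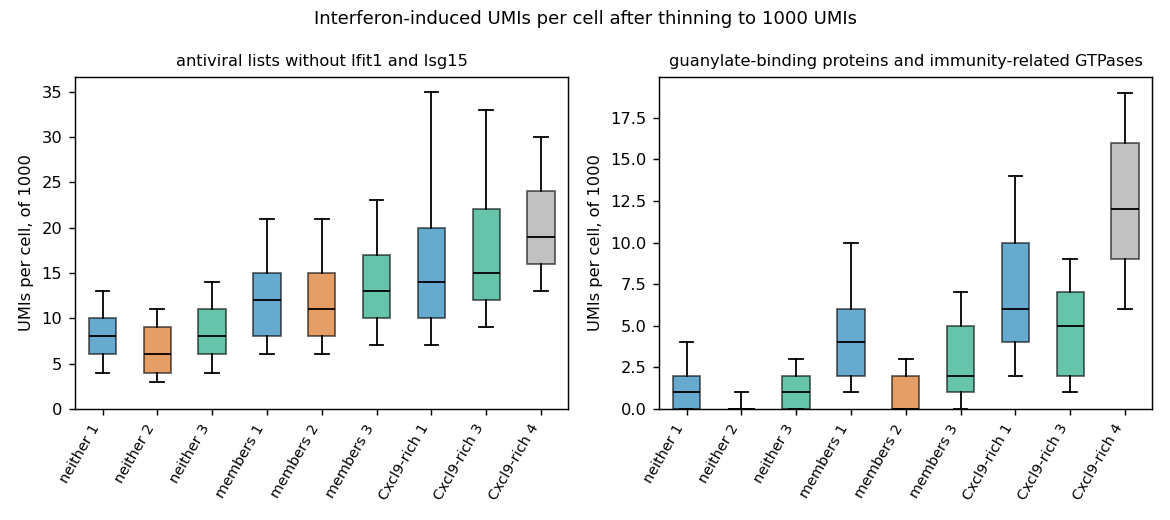
Boxes give UMIs per cell after thinning to 1000 UMIs, for the antiviral lists without Ifit1 and Isg15 (left) and the GTPase lists (right), in comparison cells, members and Cxcl9-rich cells of each library. Boxes span the quartiles with the median as a line, and whiskers reach the lowest and highest deciles. Antiviral medians of members lie between 11 and 13, and GTPase medians at 4, 0 and 2 in libraries 1, 2 and 3.

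Members were also set beside the capillary cells with 20 or more Cxcl9 UMIs, and a ratio against them could be formed in library 1, with 1107 members and 105 Cxcl9-rich cells. Of 8288 genes tested 41 were 2-fold or more lower in members (0.495%) and 53 were 2-fold or more higher (0.639%). Ifit1 itself was at 749 CPM in members and 1117 CPM in Cxcl9-rich cells, which had no condition on it. The antiviral genes had a median log2 ratio of -0.50, with Ifit2 at 195 against 469 CPM and Rsad2 at 663 against 1518 CPM. The guanylate-binding proteins had a median of -1.04, and Gbp2 was at 274 CPM in members against 983 CPM. Of 8 checkpoint and enzyme genes 6 were 2-fold or more lower in members, among them Cd274, the ligand of PD-1, at 168 against 455 CPM, Ubd, a ubiquitin-like modifier, at 0.639 against 27.8 CPM, and Serpina3g, an intracellular protease inhibitor, at 3.19 against 120 CPM. Vcam1, an adhesion molecule for leukocytes, was at 75.8 against 253 CPM. Among genes higher in members, C3 was at 286 against 47.0 CPM, Stmn2 at 39.5 against 2.13 CPM, and Dcn at 680 against 147 CPM. Of the fibroblast markers 5 of 7 were 2-fold or more higher in members. Of the arterial markers, which include Stmn2, 3 of 7 were, with a list median of 0.79. Cxcl9-rich cells were deeper still, with a median of 11884 UMIs in library 1. The part of depth and of the fibroblast and arterial transcripts in these differences was not tested. Immediate early genes had a median of 0.03 in this comparison, with Egr1 at 4746 and 4796 CPM.

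In the 37 Cxcl9-rich cells of library 3 Ubd was at 0 UMIs and Serpina3g at 3.17 CPM, whereas in the 147 such cells of library 4 they were at 1550 and 1722 CPM. Ifit1 in those cells was at 680 CPM in library 3, where members had 321 CPM, and at 192 CPM in library 4, and Irf7 was at 597 and 891 CPM. The Cxcl9-rich cells of the 3 libraries therefore had unlike levels of Ubd, Serpina3g and Ifit1, and those of library 1 cannot be read as standing for the others.

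Ifit1 was not limited to capillaries. Pooled over all capillary cells of a library, whatever their Ifit1 count, it was at 429, 20.3, 129 and 185 CPM in libraries 1 to 4. Arterial cells had 302, 17.6, 91.7 and 188 CPM, and lymphatic cells had 286, 14.4 and 246 CPM in libraries 1 to 3. The order of the libraries was the same in capillary and arterial cells, with library 1 highest and library 2 lowest. Fibroblasts had 105, 11.5, 30.5 and 163 CPM and macrophages 28.8, 3.48, 18.6 and 101 CPM, with library 4 highest in both. Neutrophils of library 4 were at 557 CPM (exact Poisson 95% interval 505 to 613), the highest value of any class and library compared. Erythroid cells were taken as a class that should lack Ifit1 and show what free RNA gives, and they had 21.1, 3.43, 0 and 45.5 CPM.

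**Figure D5:**
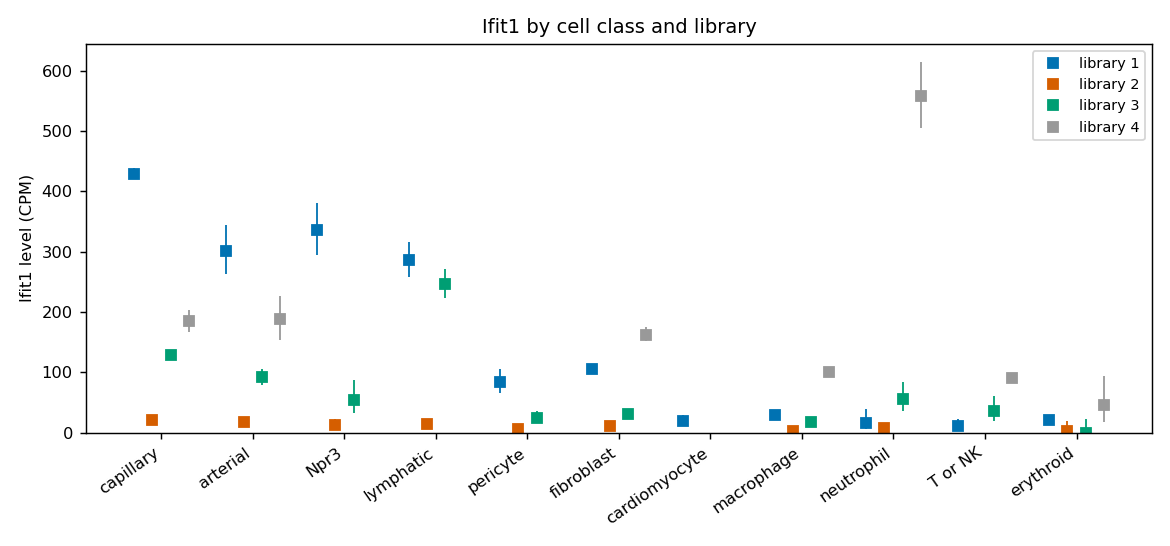
Squares give the Ifit1 level in CPM, with exact Poisson 95% intervals, for 11 cell classes defined by marker UMIs in each library with at least 30 cells of the class. Capillary cells stand at 429 CPM in library 1 and 20.3 CPM in library 2, and neutrophils of library 4 at 557 CPM.

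The share of cells with both Ifit1 and Isg15 depended on depth. It was 37.1%, 4.49%, 20.6% and 44.3% of all capillary cells in libraries 1 to 4 at full depth and 11.8%, 0.395%, 2.42% and 1.14% after thinning to 1000 UMIs. Erythroid cells, at a median of 6909, 3250, 4304.5 and 3476.5 UMIs, had shares of 5.13%, 0%, 0% and 5.26% at full depth, where capillary cells had medians of 4861.5, 5850.5, 6376 and 9913.5 UMIs. After thinning the erythroid shares were 0%, 0%, 0% and 2.78%, the last from 1 of 36 cells. In library 2 0 of 59 erythroid cells allows a share of up to 5.08% if 3 counts are taken as the limit and 6.06% by the exact binomial interval, so the capillary share of 4.49% there was not distinguishable from that background by this count. In larger classes of library 2 the share was 0.987% of 1114 neutrophils (0.494 to 1.76) and 1.84% of 434 fibroblasts (0.799 to 3.60). These intervals lay below that of capillary cells, 3.80 to 5.27. Intervals of macrophages, pericytes and the other endothelial classes overlapped it. The pooled Ifit1 level of capillary cells in library 2, 20.3 CPM (18.7 to 22.1), lay above that of the erythroid cells, 3.43 CPM (0.0867 to 19.1, from 1 count), but the intervals overlapped. Macrophages at 3.48 CPM (1.85 to 5.95), neutrophils at 7.79 (5.78 to 10.3) and fibroblasts at 11.5 (9.62 to 13.7) lay below without overlap. So did pericytes at 6.03 (1.96 to 14.1), whereas the other endothelial classes overlapped. The part of free RNA in these values was not tested. Within library 2 the log2 ratios of members over comparison cells were 2.41 for Rsad2, 2.32 for Irf7 and 3.12 for Ifit3, which are among the larger ones. The median over the 52 antiviral genes tested was 0.99 there, and Irf1 was at 0.21. The part of free RNA in these ratios was not tested either.

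The response element letters were common among the promoters of the higher genes. Of the 23 genes 2-fold or more higher, 19 had a RefSeq promoter and 8 of these (42.1%) held GAAA NN GAAA. With the rule genes left out it was 6 of 16 (37.5%), beside 3.97% of the genes tested. In the IFIT family 5 of 6 genes with a promoter held the letters, in the immunity-related GTPases 5 of 6, in the guanylate-binding proteins 5 of 5, and in the capillary markers 0 of 7. TTCNNNGAA was held by 4 of the 19 higher genes (21.1%), beside 8.0% of the genes tested, and by 4 of the 6 immunity-related GTPases, 2 of the 5 guanylate-binding proteins, 1 of the 6 IFIT genes and 0 of the 7 capillary markers. The Igtp promoter (chr11:58199306-58199605) carried both, with TTCNNNGAA 45 and GAAA NN GAAA 34 bases before the start. These strings are descriptions of the windows and show neither binding nor cause.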

How the data were processed

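Grafts were profiled with 10x 3′ v3 chemistry, and the authors deposited 1 merged matrix of UMI counts for all grafts, made with Cell Ranger 3.0.0 per the file header on mm10 and not normalized. The study marked doublets with scran; those marks were not used here, and no doublet was removed apart from an alternative without the 5% of cells with most UMIs. Library was read from the barcode suffix. Cell classes were set by marker UMIs and not by clustering, and 50 or more cells of both kinds were required for a ratio. CPM were computed from the deposited counts with mitochondrial UMIs left out (Python 3.11.15, numpy 2.4.6, scipy 1.17.1), with exact Poisson and Clopper-Pearson 95% intervals. Depth matching drew comparison cells, with replacement, within 10 depth bins. Ratios were formed within libraries. Since the libraries could not be mapped to the labelled grafts and the members were chosen by their readout, no test was run and a called gene is one past 2-fold. The ratio code was checked on simulated data. Members and lists were chosen with earlier results of these data known. Named genes were the rule genes, examples of each list by level or ratio, and the 20 highest and 15 lowest ratios of 1 sign in all 3 libraries. Timp1, outside that rule, was named as 1 of the 6 lower genes. Positions are from GENCODE M21 on GRCm38. Alternatives changed the rule, depth, scaling and comparison cells. Of the listed genes 5, Oas1b, Mx2, Gm4955, Gbp11 and Cxcl11, were not analysed here.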

Additional observations from a re-analysis of the deposited data

How the results depend on the processing

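No paired analysis was possible because the libraries carry no replicate number from the labels and no result comes from a test. Members were 19.2% of capillary cells, and 11.4% with at least 2 UMIs of Ifit1 and Isg15, 20.9% with under 10% mitochondrial UMIs, 12.6% with 0 UMIs of Dcn, C1qa, Cd3d, Kcnj8 and Tnnt2, 10.1% with cells thinned to 2000 UMIs before the rule, 7.97% with 0 UMIs of Cxcl9 (an alternative chosen after seeing the data), and 10.9% to 27.1% with 1 library left out, lowest without library 1 and highest without library 2. The 23 higher and 6 lower genes became 36 and 3 with at least 2 UMIs of both genes, 44 and 2 without the other marker UMIs, 77 and 23 after thinning, 42 and 44 with 1 CPM added, 80 and 87 with pooled CPM, 47 and 12 with the mean of per-cell CPM, and 12 and 1 against all cells lacking Ifit1 or Isg15. The lower count was 3 without the 5% of cells with most UMIs and 13 against depth-matched cells. Leaving out 1 library gave 23 to 37 higher and 2 to 27 lower genes. Library 4 enters no ratio, so its omission repeats the reported value, and without library 1, 2 or 3 there were 27, 37 and 30 higher and 27, 2 and 8 lower genes. The antiviral median of 0.59 became 0.86 after thinning and 0.96 with pooled CPM, and was 0.59 to 0.79 with 1 library left out (0.61 or more without library 1, 2 or 3). The GTPase median of 0.89 became 1.01 with at least 2 UMIs, 1.30 after thinning, 1.27 with 1 CPM added, 1.58 with pooled CPM, 1.10 with per-cell means, 1.02 against depth-matched cells and 0.71 against all cells lacking Ifit1 or Isg15, and was 0.89 to 1.02 with 1 library left out (0.92 or more without library 1, 2 or 3). The cause of these shifts was not tested. The 20 named higher genes were chosen as the highest ratios with 1 sign in all 3 libraries. Over the 16 settings that can change a ratio they had 320 of 320 values above 0, from 0.66 to 3.06, of which 302 passed 2-fold. Because of that choice, and because the settings reuse largely the same cells, these counts are a description and no independent check. The 15 named lower genes, chosen likewise as the lowest ratios, had 237 of 240 on the same side, and 64 values were past 2-fold. In library 4, 5 members gave no ratio. Thinning and the limit on other marker UMIs left libraries 1 and 3 with enough cells.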
